A study of Rattus norvegicus with 10 samples.

Results

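AABR clone genes are rat genes that the annotation lists without a symbol and names after a sequence clone of the genome assembly. The name says where a gene model was found, and nothing of what the gene does. They were taken from the table's isoform rows that match a reference transcript (class code =) and whose gene name begins with AABR and a number, summed by gene identifier. Rows in the immunoglobulin regions at chr6 138 to 147 Mb, chr4 98 to 104 Mb and chr11 85 to 87 Mb were left out. This gave 2989 genes from 3276 isoform rows, of 22056 annotated genes in the table. The regions left out held 133 further AABR genes. At their edges, the first gene left out on chr4, AABR07060872, averaged 14.0 FPKM (fragments scaled to transcript length and library depth), against 0.126 FPKM in AABR07060862 just below the limit, and AABR07034750 just above the chr11 limit averaged 2.72 FPKM, against 0 FPKM in AABR07072264 just inside it.

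The libraries were of liver RNA from diabetic Wistar rats of wild-type genotype, 5 after sleeve gastrectomy (SG), in which most of the stomach is removed, and 5 after a sham operation (SHAM). All rats had been fed a diet with 60% of its calories as fat for 4 weeks and then injected with 35 mg/kg of streptozotocin, which kills insulin-producing cells, after a 16 h fast. Those whose fasting glucose exceeded 16.7 mmol/L 3 days later counted as diabetic, and they were divided at random into groups matched for body weight. A time of 3 months is labelled for SG only, so a difference in time and the operation itself cannot be told apart. Whether every library stands for a separate rat is not stated either, and the p-values cover only the spread between libraries, which may be technical.

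Total estimated counts ran from 77617460 to 92110190 in SG libraries and from 65824088 to 85520959 in SHAM libraries. The liver label was checked against marker genes. The summed level of 8 hepatocyte genes was 21646 to 39882 FPKM in SG and 25563 to 34564 FPKM in SHAM. Macrophage and Kupffer cell genes summed to 124 to 330.1 FPKM in SG and 97.6 to 312 FPKM in SHAM, stellate cell and fibroblast genes to 22.2 to 74.7 FPKM in SG and 16.3 to 36.1 FPKM in SHAM, and red blood cell genes to 131 to 485 FPKM in SG and 245 to 1140 FPKM in SHAM. T and NK cell genes summed to 8.40 to 17.6 FPKM in SG and 8.04 to 21.4 FPKM in SHAM. Hepatocyte genes thus stood far above the other lists in every library.

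As background, gene models without a symbol are a mixed class. Some are protein-coding genes whose symbol was not carried over, some are copies of expressed genes inserted back into the genome without introns, and some are short models inside repeated non-coding RNA genes. Signal recognition particle RNA (7SL RNA), which guides secreted proteins to the endoplasmic reticulum, and 5.8S ribosomal RNA, a component of the large ribosomal subunit, both belong to families with many copies in rodent genomes. Reads from near-identical copies can be assigned to one copy or another, so levels of members in such families are uncertain.

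The label "unnamed" held for most members and not for all. A gene description stood beside 229 of the 2989 AABR genes (7.66%), against 91.8% of the 18934 other annotated genes. A further 1251 members carried Gene Ontology terms without a description, and 1509 carried neither. Of 227 members whose description holds an NCBI gene number, 184 matched a RefSeq symbol, and 57 of these had a mean of at least 1 FPKM. For 52 of the 57 no other row carries that symbol, though a row under an older symbol would not have been matched. They include AABR07073038, described as poly(rC) binding protein 1 (Pcbp1), an RNA-binding protein, and AABR07044925, described as sirtuin 1 (Sirt1), an NAD-dependent protein deacetylase. Of 65 described members with a mean of at least 1 FPKM, 31 are described as like, similar to or pseudo, and 34 are not.

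The promoters of Pcbp1 and Sirt1 are shown as those of the RefSeq genes whose number stands in the description. No sequence at the clone-named loci was compared with them. They come from RefSeq's GRCr8 assembly and run from 250 bases before to 50 bases after the gene's start, 5′ to 3′. Capitals mark the E-box CACGTG, which is its own reverse complement, and the GC box GGGCGG on either strand. The Pcbp1 window lies at chr4:120532058-120532357 on the minus strand and the Sirt1 window at chr20:25305703-25306002 on the plus strand. In Rnor_6.0, the genome build of the libraries, AABR07073038 and AABR07044925 both lie on the minus strand. The strand thus differs between the builds for Sirt1.
Pcbp1: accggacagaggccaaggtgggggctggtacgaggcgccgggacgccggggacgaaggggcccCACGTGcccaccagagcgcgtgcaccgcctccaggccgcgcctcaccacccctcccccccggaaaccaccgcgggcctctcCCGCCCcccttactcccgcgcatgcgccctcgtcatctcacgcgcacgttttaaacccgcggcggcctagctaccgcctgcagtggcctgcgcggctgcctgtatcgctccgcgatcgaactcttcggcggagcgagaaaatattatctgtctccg
Sirt1: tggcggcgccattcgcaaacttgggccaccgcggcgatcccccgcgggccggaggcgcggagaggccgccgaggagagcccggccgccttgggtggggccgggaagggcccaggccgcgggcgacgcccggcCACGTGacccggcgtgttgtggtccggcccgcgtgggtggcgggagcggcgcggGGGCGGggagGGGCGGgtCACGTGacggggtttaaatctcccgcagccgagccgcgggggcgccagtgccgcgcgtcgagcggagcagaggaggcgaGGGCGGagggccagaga
The Pcbp1 window held 1 E-box and 1 GC box, and the Sirt1 window held 2 E-boxes and 3 GC boxes, and no E-box overlapped a GC box. Over all 33469 promoters of the same length, 6.42% held the E-box and 33.1% the GC box. Among 207 promoters of the 123 AABR genes matched by gene number, the shares were 7.25% and 30.9%.

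AABR genes were expressed at low levels and had few exons. The median of their mean FPKM was 0.0867, against 0.850 in other annotated genes. A mean of at least 1 FPKM was reached by 397 members (13.3%), against 47.4% of the other genes, and 78 members stood at 0 in every library. At least 1 FPKM was reached in all 10 libraries by 200 members, in some libraries by 511, and in none by 2278. Only 12 members averaged 100 FPKM or more.

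A single exon was annotated for 1398 of the 2989 members (46.8%) and for 17.7% of other annotated genes. Members with 2 or 3 exons numbered 1086, those with 4 to 9 exons 346, and those with 10 or more exons 159. The most abundant isoform had a median length of 581 nt, against 1878 nt in other genes. Among the 397 members with a mean of at least 1 FPKM, 220 had 1 exon (55.4%), against 8.92% of the other genes above that level. No other annotated gene overlapped 2304 members, 348 overlapped one on the same strand and 337 only on the opposite strand. The AABR genes were spread over all autosomes and chromosome X, with 325 on chr1 and 62 on chr11.

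**Figure D1:**
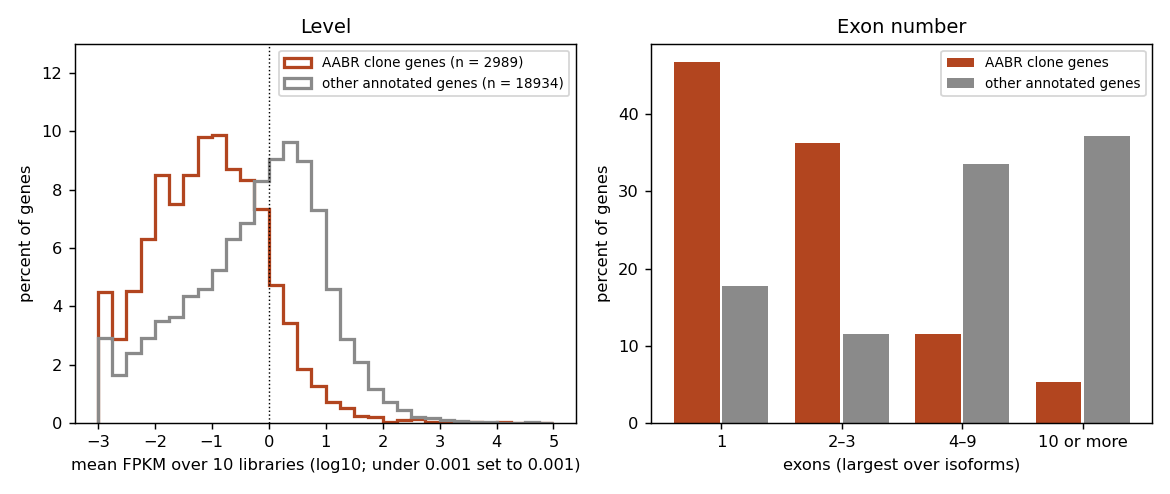
Mean FPKM over 10 libraries on a log10 axis (left, percent of genes per bin) and exon number (right, percent of genes) for 2989 AABR clone genes and 18934 other annotated genes. AABR genes peak below the dotted line at 1 FPKM, and 46.8% of them have 1 exon, against 17.7% of the others.

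The members' share of all annotated FPKM was held largely by a few loci in or near known non-coding RNA genes. The share was 3.89%, 6.71%, 8.61%, 5.68% and 4.64% in SG libraries 1 to 5 and 5.86%, 6.56%, 2.19%, 7.45% and 9.38% in SHAM libraries 1 to 5. The mean was 5.91% ± 1.85 in SG and 6.29% ± 2.65 in SHAM (SD, n = 5 each), and the groups overlapped widely. An exact two-sided permutation test gave p = 0.802, where the smallest p that 5 against 5 allows is 0.00794. The difference of -0.38 percentage points turned to 0.12 without SG 1, to 0.39 without SHAM 5 and to 0.0807 without the 3 most abundant members, so its direction rests on single libraries and loci.

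The 3 members that overlap a 7SL RNA gene held 53.3% of the members' summed mean FPKM, and the 10 members within 20 kb of a 5.8S ribosomal RNA row held 24.3%. The 7SL members took 1.07% to 5.03% of annotated FPKM in SG and 0.0353% to 4.74% in SHAM. The members beside 5.8S rows took 0.379% to 3.74% in SG and 0.452% to 4.40% in SHAM. The remaining 2976 members together took 1.296% to 1.36% in SG and 1.12% to 1.87% in SHAM, a narrower range than either of the small sets.

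**Figure D2:**
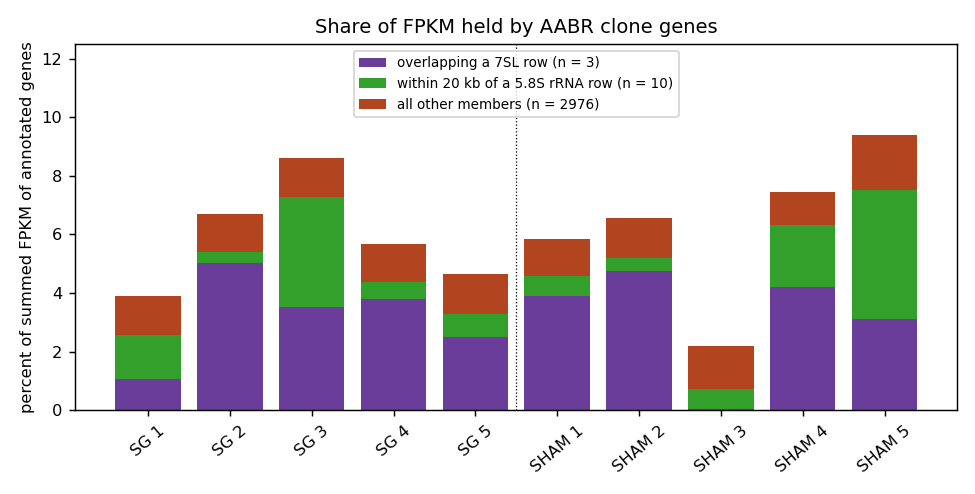
Percent of the summed FPKM of annotated genes held by AABR clone genes in each of the 5 SG and 5 SHAM libraries, stacked by locus. The top layer, 2976 members, stays between 1.12% and 1.87%, while the layer of 3 members overlapping a 7SL row falls to 1.07% in SG 1 and 0.0353% in SHAM 3.

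AABR07064724 was the most abundant member, an 80-nt, single-exon model on the minus strand at chr6:91680226-91680305 (Rnor_6.0). It stood at 0.0399, 19809.7, 12569.7, 15703 and 8815 FPKM in SG 1 to 5 and at 13902, 17296, 0.682, 15052 and 10255 FPKM in SHAM 1 to 5. It was thus near 0 in 1 library of each group and at 8815 FPKM or more in the other 8. It lies almost wholly within RF00017, the table's row for a signal recognition particle RNA, at chr6:91680229-91680528 on the same strand. That 300-nt row stood at 24330 to 50219.6 FPKM in SG and 30384 to 35369 FPKM in SHAM, and it did not drop in the libraries where AABR07064724 was near 0.

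The other 2 members in 7SL genes were each found in 1 library. AABR07064716, also 80 nt and at chr6:91457131-91457210, reached 3745 FPKM in SG 1 and stood at 0.0740 to 0.157 FPKM in the other SG libraries and 0.0458 to 0.126 FPKM in SHAM. It overlaps Rn7sl1 on the same strand, which stood at 29124 to 56465 FPKM in SG and 34964 to 44875 FPKM in SHAM. AABR07029907, 78 nt at chr10:59151908-59151985, reached 111 FPKM in SHAM 3, against 0.0798 to 0.0869 FPKM in SG and 0.0816 to 0.109 FPKM in the other SHAM libraries. The RF00017 row that it overlaps was lowest in SHAM 3, at 39.6 FPKM. That row stood at 49.9 to 108.8 FPKM in SG and at 69.5 to 80.5 FPKM in the other SHAM libraries. Both of these singular libraries, SG 1 and SHAM 3, are the ones in which AABR07064724 was near 0. All 3 models are shorter than the mean insert of 300 bp that the labels give for the libraries.

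Members beside 5.8S ribosomal RNA rows varied as widely. AABR07015056 sums 7 single-exon isoforms spread over chr14:46525889-46655398, a span that overlaps Rn5-8s. It carries 6 clone names, and its most abundant isoform is 411 nt long. The locus stood at 3649, 1183, 9433, 1811 and 1719.8 FPKM in SG 1 to 5 and 1240.3, 1028, 955, 5245 and 10751.5 FPKM in SHAM 1 to 5. SG 3 and SHAM 5 were the highest library of their group. The same 2 libraries were highest in AABR07063424, a 411-nt model at chr6:30638733-30639143, with 1032 FPKM in SG 3 and 1199 FPKM in SHAM 5, against 9.20 to 401 FPKM in the other SG libraries and 0.0147 to 199.8 FPKM in the other SHAM libraries.

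AABR07015055 at chr14:46523589-46523999, also 411 nt long but farther than 20 kb from any 5.8S row, reached 485 FPKM in SG 3 and 646 FPKM in SHAM 5, against 59.1 to 174 FPKM in the other SG libraries and 41.7 to 143 FPKM in the other SHAM libraries. AABR07000398, with 5 exons and 3 clone names on chr1, overlaps a 5.8S row (RF00002). It stood at 636, 0.170, 1380.6, 3.73 and 419.8 FPKM in SG 1 to 5 and 0.223, 3.15, 0.0823, 5.72 and 1654 FPKM in SHAM 1 to 5. Its high libraries were SG 1, SG 3, SG 5 and SHAM 5. AABR07015042 was high in SG 3 (869 FPKM), SHAM 1 (785 FPKM) and SHAM 4 (1128 FPKM), against 1.14 to 40.1 FPKM in the other SG libraries and 9.19 to 19.3 FPKM in the other SHAM libraries. The libraries had been depleted of ribosomal RNA, per the labels.

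Among the 10 members with the highest mean, AABR07035374 and AABR07034632 were spliced and lay outside those loci. AABR07035374, with 8 exons at chr12:11663683-11677830, overlaps LOC100910877 on the same strand. It stood at 816 to 1014 FPKM in SG, against 1312, 1371, 1021, 184 and 2166 FPKM in SHAM 1 to 5, so the SHAM libraries enclosed all the SG ones. AABR07034632, with 10 exons at chr11:81707804-81735592, carries terms for a secreted cysteine-type endopeptidase inhibitor. Its total was 916, 917, 343, 986 and 417 FPKM in SG 1 to 5 and 478, 627, 954, 1082 and 547 FPKM in SHAM 1 to 5. Its isoforms made up the total in different proportions from library to library. The 1702-nt isoform stood at 515, 200.4, 343, 373 and 377 FPKM in SG 1 to 5 and 384, 2.49, 0.984, 346 and 331 FPKM in SHAM 1 to 5. The 1059-nt isoform stood at 401, 717, 0, 613 and 40.1 FPKM in SG 1 to 5 and 94.1, 624, 953, 735 and 217 FPKM in SHAM 1 to 5. SG 3 lacked the shorter isoform, SHAM 2 and SHAM 3 nearly lacked the longer one, and the other 7 libraries held both.

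**Figure D3:**
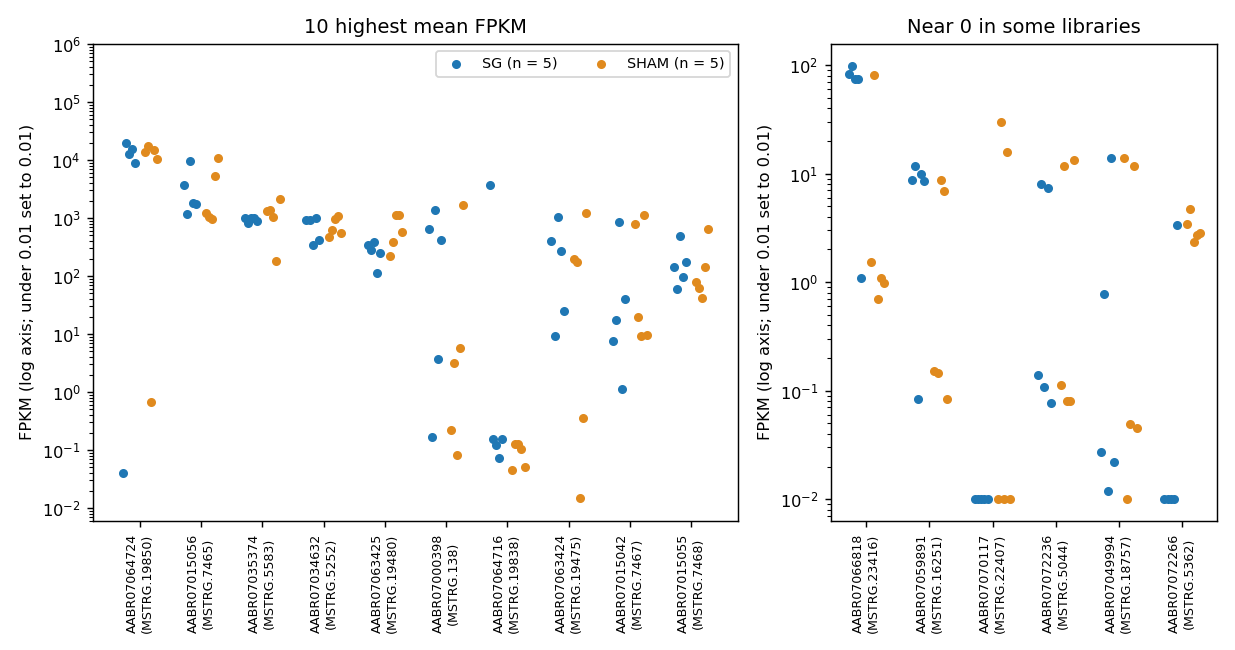
FPKM on a log axis in each SG and SHAM library for the 10 members with the highest mean (left) and 6 further members near 0 in some libraries (right), where values under 0.01 are drawn at 0.01. Levels of single members differ by several orders of magnitude between libraries of one group, and AABR07035374 and AABR07034632 are among those that stay above 100 FPKM throughout.

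A split between presence and absence was more frequent among AABR genes than among other genes. A level of 0.1 FPKM or less in at least 1 library, with 1 FPKM or more in another, was found in 42 of the 397 members (10.6%) and in 488 of 8978 other annotated genes (5.44%). Genes with provisional LOC or RGD numbers, the most similar class, had 48 of 459 (10.5%). Of the 42 members, 13 were absent from libraries of both groups, 12 from SG libraries only and 17 from SHAM libraries only. This split was not made for the other genes, so it cannot be called particular to the members. Absent members numbered 7 to 12 per SG library and 8 to 12 per SHAM library, so no library held most of them. Apart from AABR07072266 and AABR07063425, the members in the next sentences were picked for the text after their values were seen.

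AABR07066818, a 2-exon gene with a ribosomal protein term, fell into high and low libraries in both groups. It stood at 83.2, 98.9, 74.3, 74.7 and 1.09 FPKM in SG 1 to 5 and at 1.55, 81.5, 0.704, 1.09 and 0.972 FPKM in SHAM 1 to 5. No library lay between 1.55 and 74.3 FPKM. Since it never fell to 0.1 FPKM, it is not among the 42. AABR07072236, with 1 exon, stood at 8.11 FPKM in SG 2, 7.30 FPKM in SG 4, 11.7 FPKM in SHAM 2 and 13.4 FPKM in SHAM 5, and at 0.140 FPKM or less in the other 6. AABR07049994, with 15 exons, stood at 13.9 FPKM in SG 4, 14.0 FPKM in SHAM 1 and 11.8 FPKM in SHAM 4, at 0.783 FPKM in SG 2, and at 0.0496 FPKM or less in the other 6. AABR07066818 was high in 4 of 5 SG libraries and in 1 of 5 SHAM libraries, with a log2 fold change of 1.95 ± 1.52 (SE, edgeR adjusted p = 0.997). The other 2 genes were each high in libraries of both groups and had 1 high library, SG 4, in common.

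AABR07072266, a 3-exon gene at chr11:87767159-87769761 with a membrane protein term, stood at 0 FPKM in SG 1 to 4 and 3.33 FPKM in SG 5, against 3.45, 4.76, 2.36, 2.72 and 2.87 FPKM in SHAM 1 to 5. All but 1 SG library thus lay below every SHAM library. With all libraries its log2 fold change was -2.45 ± 1.602 (SE, edgeR adjusted p = 0.997). Without SG 5 the edgeR adjusted p was 0.00744, the single call among members in the 10 fits with 1 library left out. AABR07063425 has a 2-exon locus that was as uneven, with 37.6, 0, 0, 162 and 188.6 FPKM in SG 1 to 5 and 0, 0.0893, 16.4, 0 and 0 FPKM in SHAM 1 to 5.

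The median spread between libraries of one group was larger for AABR genes at each level. The within-group SD of log2(FPKM + 0.5) had a median of 0.411 over the 397 members, against 0.302 over the 8978 other genes. Between 1 and 3 FPKM it was 0.425 in 240 members and 0.349 in other genes. Between 3 and 10 FPKM it was 0.366 in 96 members and 0.278 in other genes, and between 10 and 100 FPKM 0.398 in 49 members and 0.259 in other genes. Above 100 FPKM it was 1.38 in 12 members, against 0.334 in other genes, and 7 of the 12 members had an SD above 1.

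The exon number went with part of the gap in median SD. Single-exon members had a median SD of 0.399 (n = 220), against 0.421 in 801 single-exon genes with other names. Members with 2 or more exons had 0.448 (n = 177), against 0.290 in 8177 others. By these medians, which were not matched for level, the gap stood in the spliced members. An SD above 1 was found in 15.8% of spliced members, against 7.94% of the others. Among single-exon genes it was found in 8.64% of members, against 7.49% of the others. The largest SD of all members, 6.31, was that of the single-exon AABR07064724. Members with a description had a median SD of 0.329, those with Gene Ontology terms only 0.391 and those with neither 0.509. No test was made of these medians, since genes are not replicates.

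**Figure D4:**
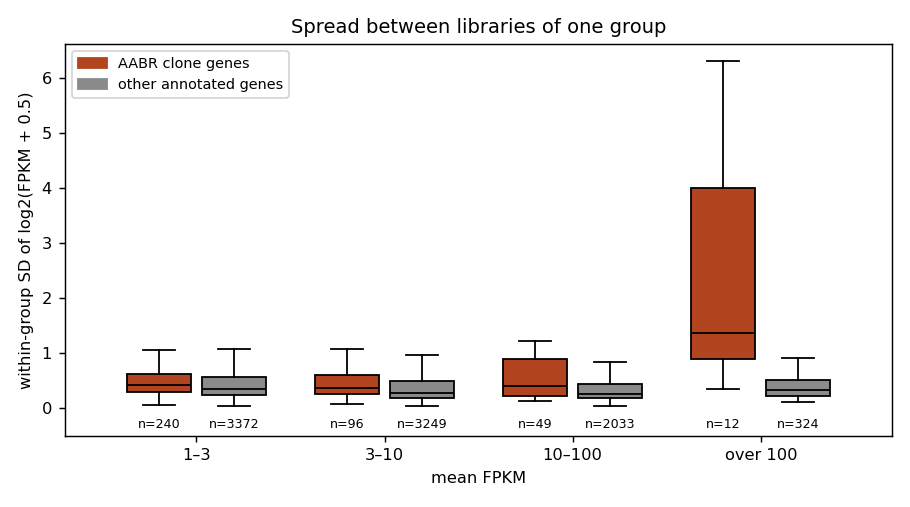
Within-group SD of log2(FPKM + 0.5) by mean FPKM for AABR clone genes and other annotated genes, with the median as a line, the quartiles as a box and whiskers to 1.5 times the quartile range (values beyond not drawn). The median is higher for AABR genes in each of the 4 ranges, and it is 1.38 against 0.334 above 100 FPKM.

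None of the 65 tested members with a description passed the test, and 5 of them had a within-group SD above 1. Those named here were chosen after their values were seen. AABR07073038 (Pcbp1), with 1 exon at chr4:118327533-118328602, stood at 104, 90.7, 87.2, 105 and 109 FPKM in SG 1 to 5 and 95.4, 95.7, 110.4, 89.1 and 86.9 FPKM in SHAM 1 to 5. Its groups overlapped, with a log2 fold change of -0.05 ± 0.10 (SE, edgeR adjusted p = 0.997). AABR07044925 (Sirt1), with 8 exons at chr20:26833357-26852199, stood at 4.94 to 8.16 FPKM in SG and 4.01 to 6.13 FPKM in SHAM, with a log2 fold change of 0.09 ± 0.14 (SE, edgeR adjusted p = 0.997). AABR07007000, described as transcription factor 7 like 2 (Tcf7l2), a Wnt pathway transcription factor, is a 3-exon model and stood at 1.09 to 1.73 FPKM in SG and 0.558 to 1.43 FPKM in SHAM, which overlapped.

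AABR07006860, described as ligand dependent nuclear receptor corepressor (Lcor), stood at 5.71 to 7.49 FPKM in SG and 6.51 to 7.89 FPKM in SHAM, with a log2 fold change of -0.25 ± 0.10 (SE, edgeR adjusted p = 0.997). AABR07051507, described as similar to complement C5, stood at 11.7 to 22.3 FPKM in SG and 12.999 to 21.2 FPKM in SHAM. AABR07006310, described as macrophage expressed 1, a pore-forming protein of phagocytes, stood at 2.66 to 9.88 FPKM in SG and 3.57 to 9.37 FPKM in SHAM. The last of these stood at 2.96, 9.88, 6.56, 4.60 and 2.66 FPKM in SG 1 to 5. In SHAM 1 to 5 it stood at 8.06, 7.97, 3.57, 3.89 and 9.37 FPKM. The macrophage list summed to 140, 330.1, 127, 125 and 124 FPKM in SG 1 to 5. In SHAM 1 to 5 that list summed to 136, 97.6, 155, 179 and 312 FPKM. SG 2 and SHAM 5 were the highest of their groups in both, but SHAM 2, the lowest library of the list, was high for the member. Whether the member follows the list was not tested. In bulk tissue fewer cells of a type and less RNA per cell cannot be told apart.

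The members with the most exons are long genes. AABR07001382, described as spectrin repeat containing nuclear envelope protein 1 (Syne1), which links the nucleus to the cytoskeleton, is split over loci of 81 and 64 exons on chr1. The 81-exon locus averaged 5.61 ± 1.29 FPKM in SG livers, against 4.72 ± 0.755 FPKM in SHAM livers (SD, n = 5 each). The 64-exon locus averaged 1.19 ± 0.215 FPKM in SG livers, against 0.980 ± 0.160 FPKM in SHAM livers. AABR07028902, with 61 exons on chr17 and no description, averaged 2.54 ± 1.16 FPKM in SG and 1.8004 ± 1.23 FPKM in SHAM. AABR07045485, with 18 exons on chr20 and described as crystallin beta-gamma domain containing 1, averaged 4.45 ± 0.920 FPKM in SG and 3.15 ± 2.23 FPKM in SHAM. None of these passed the test, and the groups overlapped for each.

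Ribosomal protein terms marked 208 members, of which 187 had 1 exon. The 42 with a mean of at least 1 FPKM included 41 with 1 exon, against 71 of 212 other genes with the term, and their median level was 2.37 FPKM, against 12.4 FPKM. Several are described as pseudogenes or as "like" a ribosomal protein. Any reads shared with the parent genes would make their levels uncertain, and such sharing was not measured. At an unadjusted p below 0.05 in edgeR, 4 of the 42 were higher in SG, against 2.54% of all genes tested, and 0 were lower, against 2.17%. After adjustment 0 of the 42 passed, and 0% of all genes tested. AABR07045322, described as ribosomal protein L13a-like, stood at 32.4, 37.4, 34.5, 31.2 and 29.2 FPKM in SG 1 to 5 and 30.5, 24.5, 26.0, 24.9 and 21.6 FPKM in SHAM 1 to 5. Its SG libraries were mostly higher, with 1 SHAM library above the lowest SG one.

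Immunoglobulin or antigen binding terms marked 79 members, 42 of them on chr3, outside the regions left out. The 10 with a mean of at least 1 FPKM, 9 of them on chr3, all had 2 or more exons. Their summed level was 30.8, 52.4, 20.1, 28.1 and 32.7 FPKM in SG 1 to 5 and 17.6, 19.5, 34.2, 16.4 and 18.7 FPKM in SHAM 1 to 5. Of these sums, AABR07058539, an 11-exon gene on chr7, gave 10.01 to 12.1 FPKM in SG and 8.86 to 14.0 FPKM in SHAM. This gene, the member not on chr3, was the larger part of the sum in SG 3 and in SHAM 1, 2, 4 and 5. By the sum, SG 2 was the highest of all libraries, and SHAM 3 the highest of its group. B and plasma cell genes summed to 24.0, 62.6, 16.9, 23.5 and 24.5 FPKM in SG 1 to 5 and 8.28, 5.39, 22.0, 11.6 and 12.7 FPKM in SHAM 1 to 5, and SG 2 and SHAM 3 were again the highest of their groups. Of the 6 B and plasma cell genes listed, Cd79a was absent and 1 averaged below 0.1 FPKM. The part of B and plasma cells in these levels was not tested. AABR07051708, on chr3 with an immunoglobulin production term, stood lower, at 0.137 to 0.159 FPKM in SG and 0.0611 to 0.116 FPKM in SHAM.

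Which AABR genes differed between SG and SHAM livers was asked with edgeR's quasi-likelihood test over all 9394 genes with a mean of at least 1 FPKM. At an adjusted p below 0.05, 0 of the 397 members passed, and so did 0% of all genes tested. At an unadjusted p below 0.05, 32 members passed (8.06%), against 4.72% of all genes tested. They were 20 higher in SG, against 2.54% of all genes, and 12 lower in SG, against 2.17% of all genes. The median log2 fold change was -0.02 over the members and -0.01 over all genes tested. DESeq2 passed 4 members at an adjusted p below 0.05, beside 0.681% of all genes, and 38 at an unadjusted p below 0.05, against 7.83% of all genes. Of these 38, 24 were higher in SG, against 4.16% of all genes, and 14 lower, against 3.67% of all genes. With limma on log2(FPKM + 0.5) 33 members had an unadjusted p below 0.05, against 6.37% of all genes, and 0 an adjusted one.

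Of the 32 members, 22 had 1 exon, beside 220 of the 397 tested (55.4%) and 8.92% of other annotated genes at that level. Of the 32, 11 were shorter than 200 nt, beside 52 of the 397 and 354 of 8978 other genes. The 32 included 4 in the 7SL and 5.8S loci, which held 3 and 8 of the 397. They also included 3 that were present in some libraries and absent in others, beside 42 of the 397 (10.6%). Confidence intervals (95%) reached a median of 0.72 log2 units to each side for members, against 0.49 over all genes tested. They excluded every change of 2-fold or more for 210 members (52.9%), against 69.8% of all genes tested. For most of the remaining members the interval held a 2-fold difference. Those of AABR07064716, AABR07029907 and AABR07070117 lay wholly beyond 2-fold, and each of these genes was near 0 in all but 1 or 2 libraries.

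The 5 smallest p-values among members higher in SG belonged to genes of low to moderate level. AABR07064810, a 333-nt single-exon gene at chr6:95826546-95826878 with a ribosomal protein term, stood at 1.34, 2.24, 2.46, 1.97 and 1.06 FPKM in SG 1 to 5 and 0.736, 0.675, 0.616, 0.306 and 0.443 FPKM in SHAM 1 to 5. Every SG library lay above every SHAM library, and the log2 fold change was 1.602 ± 0.32 (SE, edgeR adjusted p = 0.764, unadjusted p = 0.000563). DESeq2 gave it an adjusted p of 0.00151. It averaged 38.6 estimated counts per library, so its values rest on few reads.

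AABR07067829, a 483-nt single-exon gene with a ribosomal protein term, lies within Bmpr2 on the opposite strand. It stood at 12.2, 15.4, 20.6, 16.7 and 17.8 FPKM in SG 1 to 5 and 10.03, 9.48, 10.06, 9.39 and 11.008 FPKM in SHAM 1 to 5. The groups did not overlap, and the log2 fold change was 0.63 ± 0.16 (SE, edgeR adjusted p = 0.848, DESeq2 adjusted p = 0.0142). The sources used here do not say whether counting used strand, so reads of Bmpr2 and of this gene cannot be told apart.

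AABR07055776, a 1743-nt single-exon gene on chr7 with a transcription factor term, stood at 1.28, 1.29, 1.34, 1.03 and 1.896 FPKM in SG 1 to 5 and 0.581, 0.583, 0.593, 0.476 and 1.07 FPKM in SHAM 1 to 5. Its groups overlapped through SHAM 5 alone, with a log2 fold change of 0.93 ± 0.26 (SE, edgeR adjusted p = 0.908, DESeq2 adjusted p = 0.0497). AABR07024908, a 336-nt single-exon gene on chr16 with a ubiquitin-protein transferase term, stood at 1.36 to 2.27 FPKM in SG and 0.762 to 1.29 FPKM in SHAM, without overlap (edgeR adjusted p = 0.943).

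AABR07035343, a 10-exon locus with 3 clone names at chr12:10716834-10789282, carries a monooxygenase term and lies near Cyp3a18, a cytochrome P450 gene. It stood at 4.35, 9.27, 5.93, 8.85 and 9.14 FPKM in SG 1 to 5 and 1.94, 1.305, 1.40, 3.71 and 3.34 FPKM in SHAM 1 to 5. The groups did not overlap, and the log2 fold change was 1.31 ± 0.38 (SE, edgeR adjusted p = 0.943). When the assembled isoforms that match its annotation only in part were added, it turned to -0.18, so the direction holds for the reference-matching isoforms only.

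Among members lower in SG, the 5 smallest p-values all belonged to models under 80 nt. AABR07073248, 79 nt within Entpd5 on the opposite strand, stood at 1.35, 1.71, 0.762, 1.01 and 2.47 FPKM in SG 1 to 5 and 1.75, 3.33, 2.64, 3.40 and 3.91 FPKM in SHAM 1 to 5, with a log2 fold change of -1.12 ± 0.32 (SE, edgeR adjusted p = 0.943). The groups overlapped, its mean was 17.2 estimated counts per library, and its reads and those of Entpd5 cannot be told apart without strand. AABR07063425 at its 57-nt locus (chr6:30641117-30641173), within 20 kb of a 5.8S row, stood at 341, 279, 385, 114 and 245 FPKM in SG 1 to 5 and 222, 388, 1138, 1120.05 and 575 FPKM in SHAM 1 to 5. SHAM 3 and SHAM 4 were the highest, and the log2 fold change was -1.46 ± 0.50 (SE, edgeR adjusted p = 0.98).

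AABR07063421 and AABR07015055 each have a 49-nt model, on chr6 and chr14. AABR07063421 stood at 0.192 to 1.97 FPKM in SG and 1.52 to 7.75 FPKM in SHAM, and the 49-nt AABR07015055 model at 3.43 to 20.1 FPKM in SG and 10.8 to 52.0 FPKM in SHAM. SHAM 3 and SHAM 4 were again the highest libraries of both. The fifth of these members was AABR07029907, whose log2 fold change of -7.39 became -0.25 without SHAM 3. In the same way the log2 fold change of AABR07064716, 11.9 with all libraries, became 0.09 without SG 1.

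**Figure D5:**
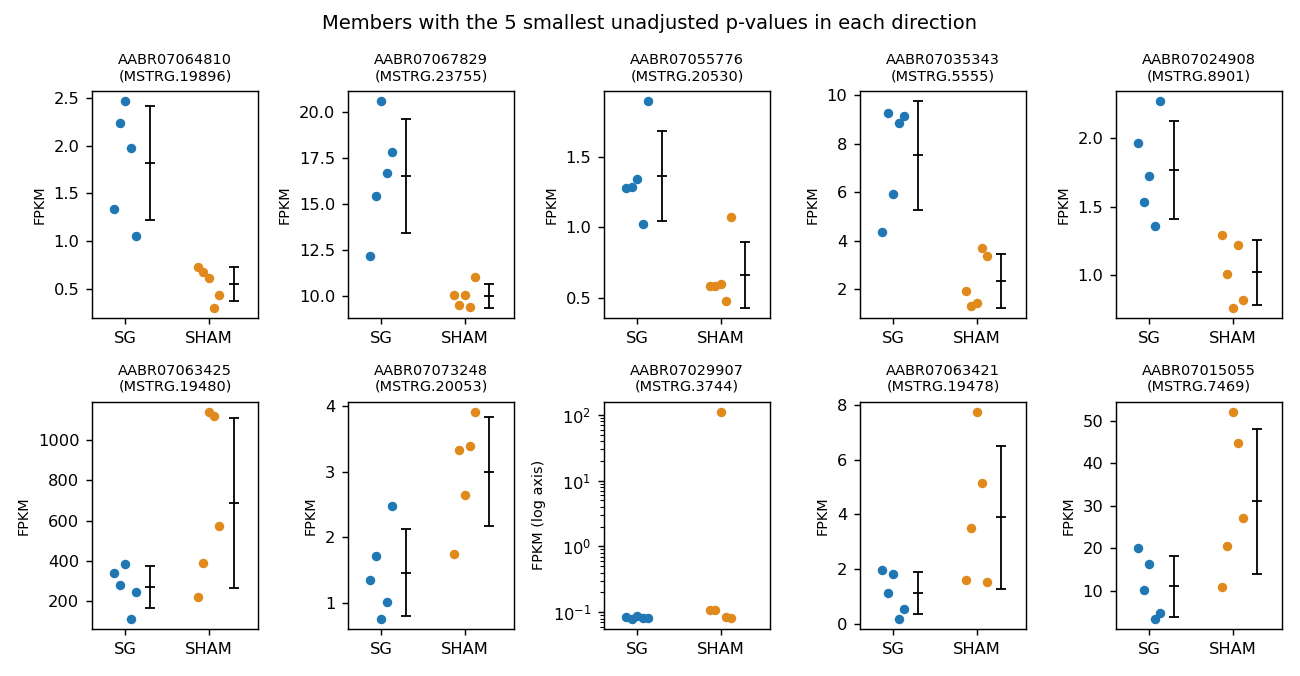
FPKM of the 5 SG and 5 SHAM libraries for the members with the 5 smallest unadjusted p-values higher in SG (top) and lower in SG (bottom), with the mean and SD beside the points except for AABR07029907, drawn on a log axis. AABR07064810, AABR07067829, AABR07035343 and AABR07024908 show no overlap between groups, and AABR07029907 differs through SHAM 3 alone.

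Over all members tested, 9 had every SG library above every SHAM library in FPKM (2.27%), against 1.29% of all genes tested, and 0 had every SG library below (0.117% of all genes tested). Of the members passed by DESeq2, AABR07070117 was chosen for the text by that call. It has 11 exons and stood at 0 FPKM in every SG library and in SHAM 1, 3 and 5, with 30.0 FPKM in SHAM 2 and 15.7 FPKM in SHAM 4. AABR07044404, which overlaps the class I histocompatibility genes RT1-CE1, RT1-CE4 and RT1-CE7 on the same strand, averaged 0.832 ± 0.904 FPKM in SG and 0.145 ± 0.212 FPKM in SHAM and did not enter the test at its level.

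The number of AABR genes detected per library had a higher mean in SG than in SHAM, a difference that did not pass after adjustment. At least 1 FPKM was reached by 406, 421, 396, 386 and 441 members in SG 1 to 5 and by 390, 385, 364, 366 and 395 in SHAM 1 to 5. The mean was 410 ± 21.6 in SG and 380 ± 14.2 in SHAM (SD, n = 5 each), with an exact two-sided permutation p of 0.0317, or 0.0635 adjusted over the 2 library measures tested. Other annotated genes above that level numbered 8842 ± 173 in SG and 8594 ± 153 in SHAM. With FPKM rescaled to a common total per library, the difference of 30 members became 14 (exact permutation, adjusted p = 0.802).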

How the data were processed

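Liver RNA of 10 libraries was depleted of ribosomal RNA, per the labels' protocols. Tools listed per the submitters' processing notes are StringTie 1.3.4, HISAT2 2.0.4, FastQC 0.10.1 and cutadapt 1.9, with Rnor_6.0 as genome build. Per the file headers, the deposited table gives an FPKM value and a count for each of 51430 isoforms in every library. The deposited counts are estimated counts: they equal FPKM multiplied by length and a constant per library, so reads shared by isoforms are split by estimate. The labels assign 5 libraries to each group, and none of the libraries held the same values as another.

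Rows were summed by gene. Genes with a mean of at least 1 FPKM entered edgeR 4.0.16 (R 4.3.3) on rounded counts, with TMM scaling, and two-sided p-values received Benjamini-Hochberg adjustment across all genes. Standard errors came from the F statistic. On simulated data with 200 changed among 9394 genes, the test called 21% of 2-fold and 73% of 4-fold changes. The changed genes were drawn from all genes tested, so these rates are not those of AABR members, whose intervals were wider. DESeq2 1.42.0 and limma 3.58.1 were alternatives, with other filters, pseudocounts, isoform classes and libraries left out. Library measures were compared by exact permutation (Python 3.11.15).

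Members named are the 10 highest by mean FPKM, the 5 smallest p-values per direction, the 5 largest spreads, the 3 with most exons and 7 from earlier results, of which AABR07034739 lies in a region left out. Others were chosen after their values were seen. Members and lists were chosen with earlier results of these data known. Symbols came from RefSeq (GRCr8), used for names and promoters only.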

Additional observations from a re-analysis of the deposited data

Results flagged for a closer look

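Among 54 sets of 5 libraries examined (the 25 named members tested and both library measures, in each group), 10 held a library far from the other 4 by Dixon's criterion. The criterion flags about 1 in 20 sets of normally spread values that were not picked beforehand. Members here were named partly for their level, spread or p-value, so that rate is no yardstick for these flags. In SG, SG 1 was high for AABR07064716 at 3745 FPKM, SG 3 for AABR07015042 at 869 FPKM and for the 411-nt model of AABR07015055 at 485 FPKM, and SG 5 for AABR07072266 at 3.33 FPKM. In SHAM, SHAM 5 was high for AABR07000398 at 1654 FPKM, AABR07063424 at 1199 FPKM, the 411-nt model of AABR07015055 at 646 FPKM and AABR07055776 at 1.07 FPKM. SHAM 3 was high for AABR07029907 at 111 FPKM and for the 2-exon locus of AABR07063425 at 16.4 FPKM.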

How the results depend on the processing

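No member passed at an adjusted p in edgeR, limma or the replicate block. DESeq2 passed 4, and leaving out 1 library passed 0 to 1. At an unadjusted p below 0.05, the wider isoform classes gave 35 of 599 members higher in SG (both directions 8.18%, against 4.65% of all genes). A mean of at least 10 estimated counts gave 35 higher and 30 lower of 1140 members (5.7%, against 4.64% of all genes). No filter gave 73 higher and 66 lower of 2911 members (4.77%, against 4.63% of all genes), so the members' excess over all genes seen at 1 FPKM (8.06% against 4.72%) was smaller with more low genes included. In limma 7 of 397 were lower with either pseudocount. With 1 library left out, 18 to 25 were higher and 9 to 18 lower. The median log2 fold change of members became 0.079 in limma, where that of all genes was 0.080, and ran from -0.04 to 0.01 with 1 library left out. The share of FPKM ran from -1.41 to 0.39 percentage points with 1 library left out and was 0.0807 without the 3 most abundant members. The difference in members at 1 FPKM passed the permutation test with the wider isoform classes (40.8, adjusted p = 0.0317) and at 0.1 FPKM (56.6, adjusted p = 0.0159). It did not pass with FPKM rescaled to a common total (14, adjusted p = 0.802). It ran from 22.3 to 36 with 1 library left out, where only leaving out SG 4 passed (36, adjusted p = 0.0159). The median within-group SD was 0.506 with a pseudocount of 0.1, 0.318 at a mean of 10 counts, and 0.399 to 0.418 with 1 library left out. The single-exon share was 55.4% at 1 FPKM. Members present in some libraries and absent in others numbered 37 to 42 with 1 library left out. The cause of these shifts was not tested.

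No reversal below concerned a member with an adjusted p under 0.05. AABR07015056 turned to 0.18 in limma with either pseudocount, 0.071 in the block and 0.89 without both SG 2 and SHAM 5, and ran from -1.03 to 0.66 with 1 library left out. AABR07034632 turned to -0.10 in limma with either pseudocount, -0.014 in the block and -0.073 without both SG 2 and SHAM 5, and ran from -0.12 to 0.21. The 411-nt AABR07015055 model turned to 0.38 in limma with either pseudocount, 0.18 in the block and 1.39 without both, and ran from -0.87 to 1.16. With the wider isoform classes AABR07000398 turned to -0.83, AABR07063424 to -1.35, AABR07035343 to -0.18 and the 2-exon locus of AABR07063425 to -2.94. With 1 library left out AABR07000398 ran from -0.53 to 7.72, AABR07063424 from -0.96 to 1.91 and AABR07064724 from -0.38 to 0.26. AABR07028902 turned to -0.11 without both SG 2 and SHAM 5.

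With the replicate block, 16 members were higher and 8 lower at an unadjusted p below 0.05, and the median was 0.00. Deviations from the group mean correlated between -0.107 and 0.012 in same-numbered libraries, so no pairing by number was seen. Whether such libraries shared a batch or a day was not tested. Short models and low counts limit precision: a 49-nt model averaged 12.4 estimated counts per library, and reads of repeated copies cannot be told apart.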
